A study of Drosophila melanogaster with 6 samples.

Results

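The maltase genes of Drosophila melanogaster form a family of 10, Mal-A1 to Mal-A8, Mal-B1 and Mal-B2, and their transcript levels were read in heart/nephrocyte complexes of adult female flies. The members were the probe sets whose only gene symbol in the platform annotation was one of these names. Each of the 10 genes had exactly 1 such probe set, which makes 10 of 18952 probe sets and 10 of the 11982 genes with a symbol. None of the 10 probe set names carries the suffix for probes shared between genes (9 end in _at, and that of Mal-B2, 1623900_a_at, in _a_at). One diet held 0.1 M glucosamine and the second 1.0 M sucrose, each given for 21 days, with 3 single-channel Affymetrix arrays per diet. The labels give no genotype, no strain and no age beyond adult, and they name 30 females without saying whether each array held that many. No label says whether replicate arrays had flies of their own, so p-values cover only array-to-array spread, which may be technical. The diets differ both in the sugar and in its concentration, and no standard food was analysed here.

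Maltases are alpha-glucosidases that split maltose, sucrose and related sugars at their terminal glucose. In insects they are known as digestive enzymes of the midgut, where they complete the breakdown of starch that amylases begin and release glucose and fructose from sucrose. In flies the transcripts of several digestive enzymes, maltases among them, are known to be lowered on sugar-rich food, and the activin-type ligand Dawdle is known to take part in this. Mal-A1, Mal-A2 and Mal-A3 are the genes first described as larval visceral proteins H, D and L. In the RefSeq annotation Mal-A1 to Mal-A8 stand side by side in that order on arm 2R with no other protein-coding gene between them, and Mal-B1 and Mal-B2 stand side by side on arm 2L.

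All values are deposited intensities on a linear scale, or differences of log2(intensity + 16), glucosamine minus sucrose, which understate the change of genes with low intensity. The array medians over all probe sets lay between 14.8 and 17.4 and the upper quartiles between 222.3 and 236.9, and 3 arrays a group limit the precision of every value. An array holds RNA of the whole complex, so fewer cells of a type and less RNA per cell cannot be told apart. Of the labelled tissue's markers, Hand, which encodes a bHLH factor of cardiac cells and nephrocytes, had 7976 to 9942 on the glucosamine arrays and 12941 to 16538 on the sucrose arrays, whereas prc, the gene of the pericardial matrix protein pericardin, stayed between 4.6 and 5.0 on all 6. Some transcripts of the fat body were at high intensity on all 6 arrays. Among them apolpp, the lipophorin gene, had 10805 to 13605 on the glucosamine arrays and 12489 to 15349 on the sucrose arrays. Other fat body genes were low, with Fbp1 at 5.26 to 21.5 and Fbp2 at 6.98 to 47.2 over all 6.

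Of these arrays 2 stand apart in markers of other tissues. Glucosamine replicate 3 had high values of several secreted gut proteases. The 25 such genes on the array summed to an intensity of 240, 1117 and 13217 in glucosamine replicates 1, 2 and 3, and to 285, 484 and 652 in sucrose replicates 1, 2 and 3. Most of the 13217 came from Jon65Aiii at 4867, yip7 at 2471, alphaTry at 2111 and Jon65Aiv at 1715. Others stayed low there, such as Jon25Bi at 5.26 and Jon65Ai at 5.99. Sucrose replicate 1 had high values of several egg chamber genes. The sum over 14 ovary markers was 713, 499 and 580 in the glucosamine arrays and 10289, 1191 and 658 in the sucrose arrays. Most of the 10289 came from osk at 6355, with Cp19 at 1336 and Cp36 at 988, while vas had 5.91 there. Maltase differences that rest on glucosamine replicate 3 are given with and without it where the gene still passed the filter.

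The maltases fell into unlike patterns. Of the 10 genes, 2 were lower after glucosamine past the threshold, Mal-A5 and Mal-B2, each at about the same log2 difference, 0 were higher in limma and 8 did not pass (also 0 higher at an unadjusted p under 0.05). Over everything tested, 18.6% was called, 8.64% lower and 9.92% higher. Mal-A1, Mal-A2, Mal-A3, Mal-A4, Mal-A6, Mal-A7 and Mal-A8 had their highest value of all 6 arrays in glucosamine replicate 3, and their groups overlapped. That array was the highest of all 6 for 19.6% of everything tested. The same 7 genes had replicate 1 lowest and replicate 3 highest within the glucosamine group, an order found for 19.5% of everything tested. All 10 genes passed the filter on low values, but Mal-A2, Mal-A3 and Mal-A7 did so only through glucosamine replicate 3, and 7 were tested without that array. There 1 of the 7, Mal-A5, was called lower and 0 were called higher, beside 4.71% and 6.28% of everything tested. The median log2 difference of the 10 was 0.74 with all arrays, beside −0.03 over everything tested, and −0.05 over the 7 genes tested without glucosamine replicate 3, beside −0.04.

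**Figure D1:**
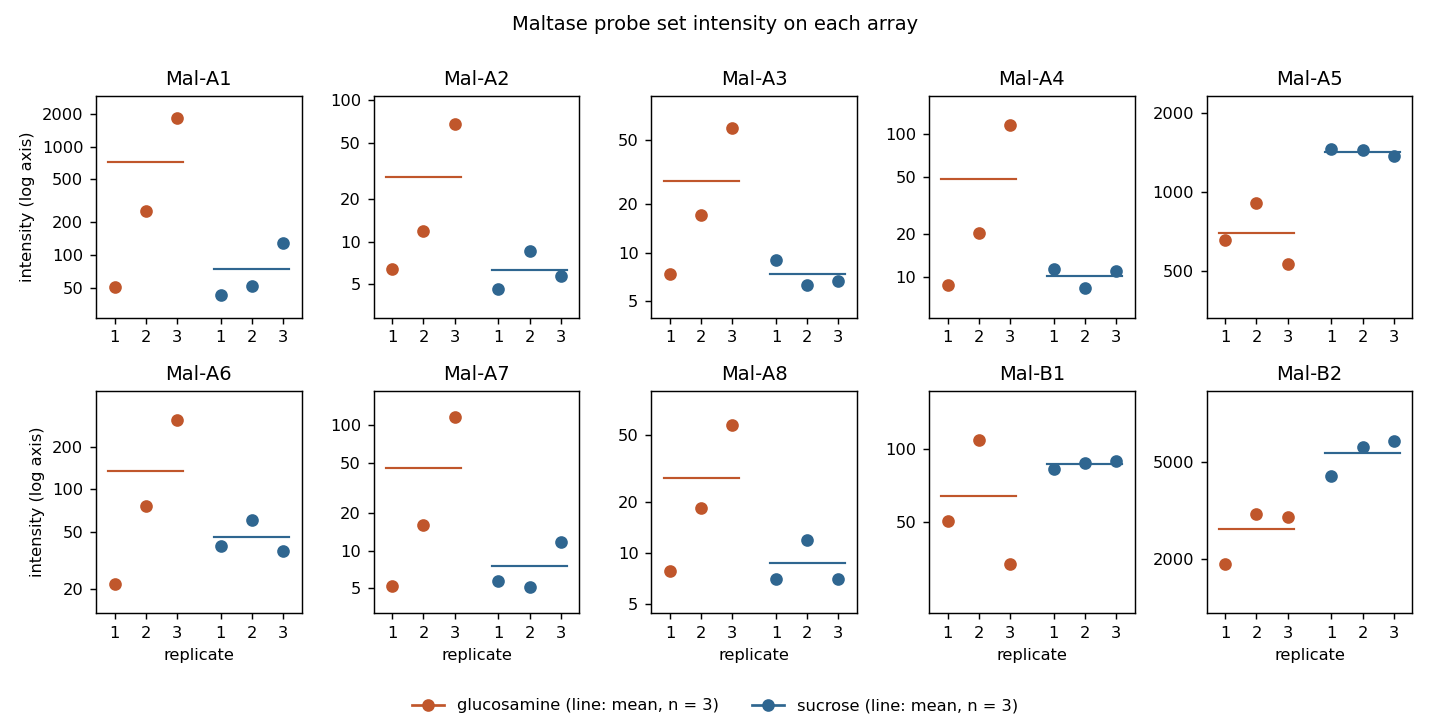
Intensity of each maltase probe set on each array, on a log axis that differs between panels, with glucosamine replicates on the left and sucrose replicates on the right and a line at each group mean (n = 3). Glucosamine replicate 3 is the highest point for 7 genes of the Mal-A cluster, while Mal-A5 and Mal-B2 have all 3 glucosamine arrays under all 3 sucrose arrays.

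Mal-A5 (CG30359, probe set 1629903_at) had an intensity of 655, 912 and 529.8 in glucosamine replicates 1, 2 and 3, against 1460, 1451 and 1367 in sucrose replicates 1, 2 and 3. The groups do not overlap, and the highest glucosamine array lies well under the lowest sucrose array. Groups did not overlap for 39% of everything tested, and for 20% with glucosamine lower. The mean intensity was 699 ± 195 in glucosamine-fed flies and 1426 ± 51.3 in sucrose-fed flies (SD, n = 3 each), which is 0.49 times the sucrose level. The log2 difference was −1.05 ± 0.21 (SE; limma adjusted p = 0.0189), with a 95% interval of −1.55 to −0.55. Sucrose arrays were close to each other, with the highest only 1.07 times the lowest, and the spread within the comparison came from the glucosamine arrays. Without glucosamine replicate 3, which had the lowest value, the log2 difference was −0.87 (adjusted p = 0.0453). Of the 6 fits with 1 array left out, 3 kept the call. The adjusted p was 0.0726 with glucosamine replicate 1 left out, 0.0569 with sucrose replicate 1 left out and 0.0591 with sucrose replicate 2 left out.

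Mal-B2 (CG14935, probe set 1623900_a_at), of the smaller cluster, had 1910, 3063 and 2980 in glucosamine replicates 1, 2 and 3, against 4390, 5759 and 6127 in sucrose replicates 1, 2 and 3. Again all glucosamine arrays were under all sucrose arrays, here with glucosamine replicate 1 the lowest and sucrose replicate 1 the lowest of its group. The means were 2651 ± 643 in glucosamine-fed and 5425 ± 915 in sucrose-fed flies (SD, n = 3 each), 0.49 times the sucrose level. The log2 difference was −1.05 ± 0.24 (SE; limma adjusted p = 0.0273), with a 95% interval of −1.61 to −0.48. It was larger without glucosamine replicate 3, at −1.15, but did not pass there (adjusted p = 0.0526). Of the 6 fits with 1 array left out, 2 kept the call. The adjusted p was 0.0678 with glucosamine replicate 1 left out, 0.0821 with sucrose replicate 2 left out and 0.0747 with sucrose replicate 3 left out.

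Mal-B1 (CG14934, probe set 1638508_at), the neighbour of Mal-B2, had 50.3, 108.5 and 33.5 in glucosamine replicates 1, 2 and 3, against 82.9, 87.7 and 89.3 in sucrose replicates 1, 2 and 3. The glucosamine arrays lie on both sides of the sucrose arrays, which were within 1.08 times of each other. The log2 difference was −0.47 ± 0.33 (SE; adjusted p = 0.363), and its 95% interval of −1.24 to 0.31 holds the size seen in Mal-B2 as well as 0. Without glucosamine replicate 2, its one high array, the log2 difference was −0.84 (adjusted p = 0.0379), and without glucosamine replicate 3 it was −0.18 (adjusted p = 0.737). Mal-B1 passed in 1 of 19 alternative fits, that without glucosamine replicate 2. Of the 3 maltases without a high value in glucosamine replicate 3, Mal-A5 and Mal-B1 had their lowest value of all arrays there.

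Mal-A1 (CG8696, probe set 1639401_at), the first gene of the larger cluster, had 50.2, 256 and 1852 in glucosamine replicates 1, 2 and 3, against 42.2, 51.9 and 129.5 in sucrose replicates 1, 2 and 3. Glucosamine replicate 1 lay within the range of the sucrose arrays, replicate 2 above it and replicate 3 far above it, at 12.1 times the mean of the other 2 glucosamine arrays. The log2 difference between the diets was 1.96 ± 1.13 (SE; adjusted p = 0.277), with a 95% interval of −0.73 to 4.64. Without glucosamine replicate 3 it was 0.69 ± 0.69 (SE; adjusted p = 0.564). The means of 719 ± 986 in glucosamine-fed and 74.5 ± 47.9 in sucrose-fed flies (SD, n = 3 each) differ by less than the spread among the glucosamine arrays.

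Mal-A6 (CG30360, probe set 1637567_at) had 21.5, 76.4 and 309 in glucosamine replicates 1, 2 and 3, against 39.7, 61.3 and 36.6 in sucrose replicates 1, 2 and 3. Here glucosamine replicate 1 was the lowest of all 6 arrays and replicate 3 the highest. The log2 difference was 0.77 ± 0.72 (SE; adjusted p = 0.4996) and −0.05 without glucosamine replicate 3 (adjusted p = 0.952).

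Mal-A4 (CG8693, probe set 1631806_at) had 8.84, 20.4 and 115 in glucosamine replicates 1, 2 and 3, against 11.45, 8.395 and 10.99 in sucrose replicates 1, 2 and 3. Mal-A7 (CG11669, probe set 1639262_at) had 5.24, 16.03 and 116 in glucosamine replicates 1, 2 and 3, against 5.70, 5.08 and 11.8 in sucrose replicates 1, 2 and 3. Both genes had 1 glucosamine array high, 1 slightly above the sucrose arrays and 1 among them or close to them. Their log2 differences were 0.91 ± 0.57 and 0.94 ± 0.63 (SE; limma adjusted p = 0.318 and 0.347). Without glucosamine replicate 3 the log2 difference of Mal-A4 was 0.20 ± 0.21 (SE; adjusted p = 0.596), and Mal-A7 did not pass the filter.

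Mal-A2 (CG8694, probe set 1627464_at) had 6.40, 11.9 and 67.45 in glucosamine replicates 1, 2 and 3, against 4.64, 8.54 and 5.68 in sucrose replicates 1, 2 and 3. Mal-A3 (CG8695, probe set 1624509_at) had 7.42, 17.2 and 59.1 in glucosamine replicates 1, 2 and 3, against 8.97, 6.33 and 6.68 in sucrose replicates 1, 2 and 3. Mal-A8 (CG8690, probe set 1624914_at) had 7.76, 18.5 and 57.2 in glucosamine replicates 1, 2 and 3, against 7.04, 12 and 7.02 in sucrose replicates 1, 2 and 3. In each of these genes replicate 3 was the one clearly high array. Their log2 differences were 0.75, 0.74 and 0.67, with limma adjusted p of 0.315, 0.255 and 0.284. Without glucosamine replicate 3 the log2 difference of Mal-A8 was 0.22 ± 0.22 (SE; adjusted p = 0.567), and Mal-A2 and Mal-A3 did not pass the filter. Outside glucosamine replicate 3, Mal-A2, Mal-A3, Mal-A4, Mal-A7 and Mal-A8 had at most 20.4, near or under the array medians, so their levels there are poorly measured and the log2 differences understate any change.

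**Figure D2:**
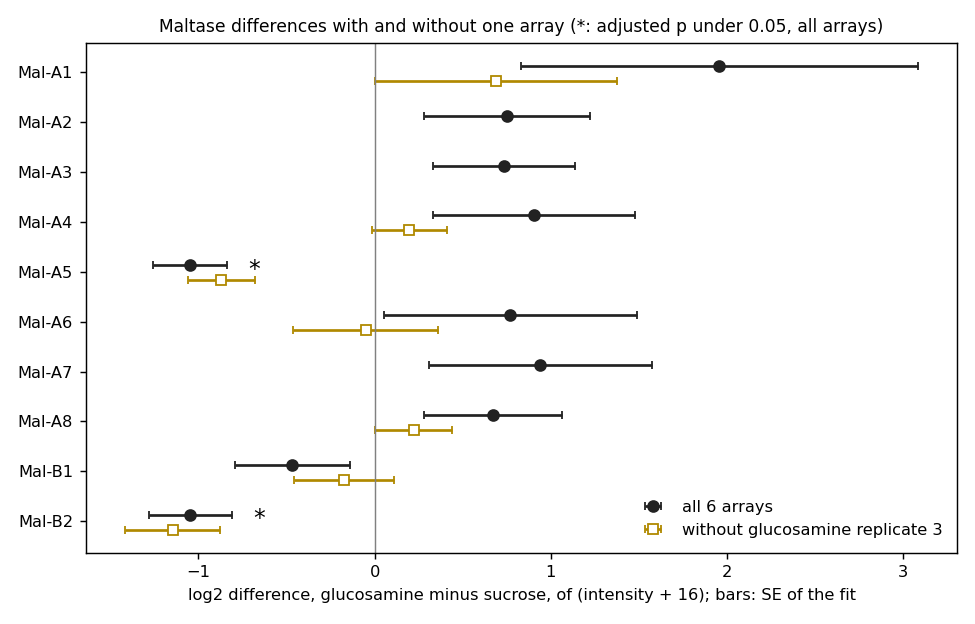
Log2 difference of each maltase, glucosamine minus sucrose, with its SE, over all 6 arrays (filled circles) and without glucosamine replicate 3 (open squares, absent for the 3 genes that no longer passed the filter). Mal-A5 and Mal-B2 stay near −1 in both fits, at −0.87 and −1.15 without that array, while Mal-A1 goes to 0.69 and Mal-A6 to −0.05.

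The difference of glucosamine replicate 3 from the mean of replicates 1 and 2, on the log2 scale, was 3.80 for Mal-A1, 2.46 for Mal-A6, 2.34 for Mal-A7 and 2.13 for Mal-A4. It was 1.74 for Mal-A2, 1.43 for Mal-A3 and 1.35 for Mal-A8. For the other 3 it was 0.30 (Mal-B2), −0.53 (Mal-A5) and −0.88 (Mal-B1). A difference above 1 on this scale was found for 7 of the 10 maltases and for 1.48% of everything tested. Mal-A1 ranked 11 and Mal-A8 ranked 74 from the top among 10021. Of the 7, Mal-A2, Mal-A3 and Mal-A7 passed the filter only through glucosamine replicate 3, so they were counted because of the value read here. Mal-A1, Mal-A4, Mal-A6 and Mal-A8 passed without it. With 1 array on one side there is no test of this difference. Replicates 1 and 2 also differed, with Mal-A1 5.09 times, Mal-A6 3.55 times and Mal-A7 3.06 times as high in replicate 2 as in replicate 1. For Mal-A2, at 1.86 times, the difference between them was the smallest of the 7.

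The gut marker genes were set beside these values. Of 79 genes on the 4 gut lists, 61 were on the array and 28 passed the filter, and a log2 difference above 1 between glucosamine replicate 3 and the mean of replicates 1 and 2 was found for 10 of the 28. These were 7 secreted proteases and 3 genes of the gut lumen or its surface. The trypsin-like gene alphaTry had 24.7, 289.9 and 2111 in glucosamine replicates 1, 2 and 3, against 38.3, 73.7 and 272.5 in sucrose replicates 1, 2 and 3. Mal-A1 and alphaTry share the order of their arrays within each group, sucrose replicate 3 being the highest sucrose array for both. Most other raised gut genes did not share it. Bace and Peritrophin-15a did share it, Peritrophin-15a with at most 6.88 on the sucrose arrays. Sucrose replicate 3 was also the highest for thetaTry (5.11), but sucrose replicate 2 was for Jon65Aiii, Jon65Aiv, yip7, betaTry, epsilonTry and Npc2e. The protease gene Jon65Aiii had 22.6, 293.5 and 4867 in glucosamine replicates 1, 2 and 3, against 39.2, 118 and 78.5 in sucrose replicates 1, 2 and 3. Replicate 3 was 30.8 times the mean of replicates 1 and 2 for Jon65Aiii, 96.9 times for yip7, 60.6 times for Jon65Aiv, 25.01 times for Bace, 13.4 times for alphaTry, 7.79 times for betaTry and 5.83 times for Npc2e. The trypsin-like gene thetaTry had 5.065, 5.399 and 425 in glucosamine replicates 1, 2 and 3. Like Mal-A2, Mal-A3 and Mal-A7, thetaTry and Peritrophin-15a passed the filter only through replicate 3. Among the maltases that passed without that array the ratio was 12.1 for Mal-A1, 7.89 for Mal-A4, 6.30 for Mal-A6 and 4.35 for Mal-A8. The gut genes given with ratios came from the 10 above 1 on the log2 scale. Their overlap in ratio with these maltases was favoured by that choice.

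Not every gut marker behaved in this way. Within the protease list 5 of 12 tested genes, such as Jon99Ci (−0.16) and Jon44E (−0.13), had a difference below 1. These 5 had at most 17.2 on any array, near or under the array medians, so their levels are poorly measured. The triglyceride lipase gene mag had 9.19, 43.7 and 22.4 in glucosamine replicates 1, 2 and 3, against 11.8, 6.26 and 7.05 in sucrose replicates 1, 2 and 3, with its highest value in replicate 2. Some gut list members well above the array medians were not raised either, against 10 of 28 with a difference above 1. Lip2 had 96.2, 140.8 and 90.5 and CCHa2 had 1311, 1894 and 1522 in glucosamine replicates 1, 2 and 3. Their differences of replicate 3 from the mean of replicates 1 and 2 were −0.32 and −0.05, and that of cad was 0.27. GATAe and esg, transcription factor genes of the midgut epithelium, stayed between 4.9 and 7.1 on all 6 arrays, glucosamine replicate 3 included. Both lay under the array medians, did not pass the filter and were not tested. Ssk, which encodes a protein of the smooth septate junctions of gut and Malpighian tubules, was higher after glucosamine (0.81; limma adjusted p = 0.00969), at 498, 433 and 499 on the glucosamine arrays against 256, 266 and 271 on the sucrose arrays. PGRP-SC2, the gene of a gut amidase that degrades peptidoglycan, was higher by 3.77 (adjusted p = 0.00659) and was as high in glucosamine replicate 2 as in replicate 3, at 5792 and 5752. The transcription factor gene pros, which marks enteroendocrine cells and also neurons, was lower by 2.23 on the log2 scale (adjusted p = 0.0172, and 0.0701 without glucosamine replicate 1). These were the gut list members past the threshold, 2 higher and 1 lower of 28, beside 9.92% higher and 8.64% lower over everything tested, and their part in the maltase values was not tested.

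Markers of other tissues were read in the same way. In glucosamine replicate 3 a log2 difference above 1 from replicates 1 and 2 was found for 0 of 5 tested Malpighian tubule genes, 0 of 10 fat body and yolk genes and 0 of 11 heart and nephrocyte genes. It was found for 2 of 12 ovary genes and for 1.48% of everything tested. At that share a count of 0 in lists this short says little about these tissues. The nephrocyte uptake genes Cubn2 and Cubn had 995, 977 and 990.4 and 1963, 1793 and 2145 in glucosamine replicates 1, 2 and 3, so replicate 3 did not stand apart. The summed intensity of the 13 heart and nephrocyte markers was 16017, 15997 and 13667 in the glucosamine arrays and 39862, 34576 and 47850 in the sucrose arrays. The 10 Malpighian tubule markers summed to 255, 271 and 165 in the glucosamine arrays and to 637, 804 and 270.0 in the sucrose arrays.

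**Figure D3:**
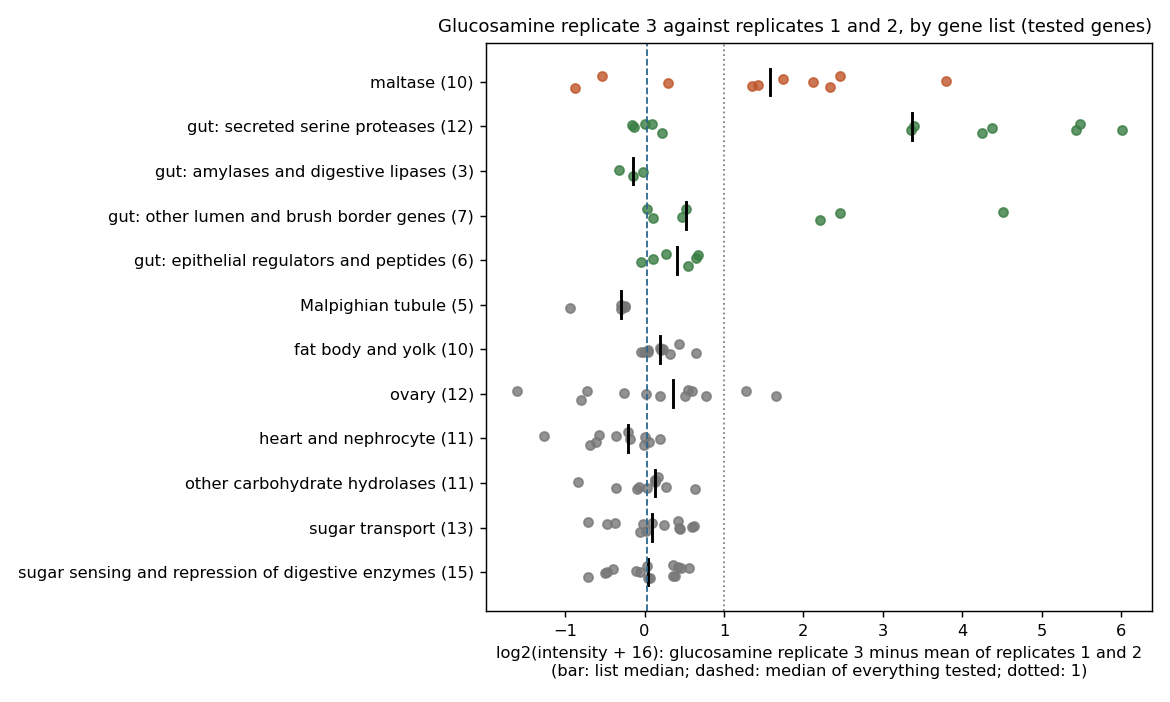
Difference on the log2(intensity + 16) scale between glucosamine replicate 3 and the mean of glucosamine replicates 1 and 2 for each tested gene of each list, with the list median as a bar, the median of everything tested (0.03) dashed and a difference of 1 dotted. The values above 1 belong to 7 maltases, 10 gut markers and 2 ovary markers. Of these, Mal-A2, Mal-A3, Mal-A7, thetaTry and Peritrophin-15a passed the filter only through glucosamine replicate 3.

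Within the family the profiles over the 6 arrays were compared by the root mean square difference of log2 values, each gene centred on its own mean. Mal-A4 and Mal-A7 differed by 0.13, Mal-A3 and Mal-A8 by 0.14, Mal-A2 and Mal-A8 by 0.15 and Mal-A2 and Mal-A3 by 0.17. Mal-A1 stood apart from the other genes with a high glucosamine replicate 3, at 0.87 (Mal-A7) to 1.21 (Mal-A8). Mal-A5 differed from Mal-B2 by 0.33 and from Mal-B1 by 0.34, and Mal-B1 from Mal-B2 by 0.51. Between those 3 genes and the 7 with a high glucosamine replicate 3 the difference ran from 0.94 (Mal-A8 and Mal-B2) to 2.18 (Mal-A1 and Mal-A5). These distances overlap with those of Mal-A1 within the 7. This division was drawn after the values were seen and has no test. It does not follow the clusters, since Mal-A5 stands between Mal-A4 and Mal-A6 on arm 2R and its profile was nearer to the pair on arm 2L.

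The genes most like the 3 maltases of widest range were named by the same measure. For Mal-A1 they were Bace (0.32), an aspartic protease gene of the gut list, CG13324 (0.35) and Npc2f (0.38), a gene of the Niemann-Pick type C2 sterol-binding family. Bace had 8.01, 77.3 and 1067 in glucosamine replicates 1, 2 and 3, against 11.6, 17.7 and 28.9 in sucrose replicates 1, 2 and 3. For Mal-A6 they were CG5107 (0.25), CG10911 (0.27) and CG9380 (0.29), and for Mal-A7 they were CG13102 (0.10), Mal-A4 (0.13) and CG5107 (0.18). All of these had their highest value in glucosamine replicate 3, which the choice by likeness to maltases high on that array brings about.

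For the maltases lower after glucosamine the same search was added after the values were seen. Nearest to Mal-A5 were CG31075 (0.10), Sod2 (0.12), the mitochondrial superoxide dismutase gene, and Spn27A (0.12), a serpin gene of the melanization response. Sod2 had 1045, 1217 and 818 on the glucosamine arrays and 1951, 2091 and 1729 on the sucrose arrays. Nearest to Mal-B2 were Inx2 (0.09), an innexin gene of gap junctions, CRAT (0.10), the carnitine acetyltransferase gene, and hng3 (0.10). CRAT had 161, 218 and 229 on the glucosamine arrays and 354, 429 and 456 on the sucrose arrays.

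**Figure D4:**
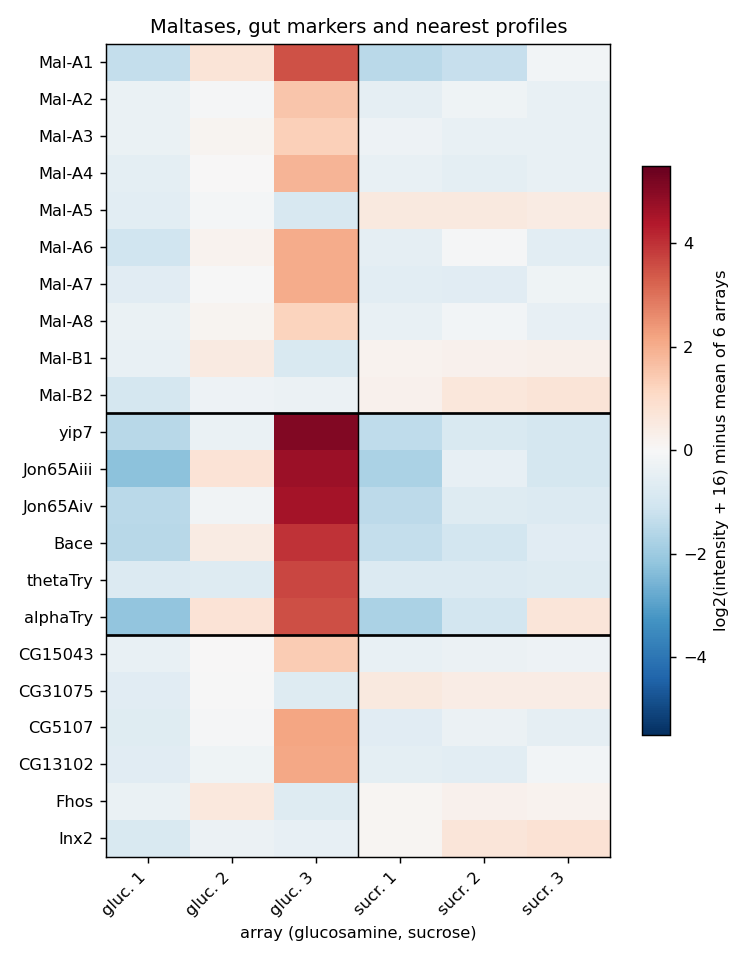
Log2(intensity + 16) of each gene minus its mean over the 6 arrays, for the 10 maltases (top), the 6 gut markers with the largest difference of glucosamine replicate 3 from replicates 1 and 2 (middle) and the nearest gene to each maltase that is not already shown (bottom). The column of glucosamine replicate 3 is red for 7 maltases and for all 6 gut markers, which were picked for a high value there. It is blue for Mal-A5, Mal-B1 and, more faintly, Mal-B2.

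The genes beside the clusters were read as well. Cyp4e1, a cytochrome P450 gene next to Mal-A1 whose annotated span overlaps it, had 365, 195 and 327 in glucosamine replicates 1, 2 and 3, against 593, 572 and 710.2 in sucrose replicates 1, 2 and 3. It fell by 1.08 on the log2 scale (limma adjusted p = 0.0281) and had no high value in glucosamine replicate 3, unlike Mal-A1 beside it. Cyp4e1 passed in 2 of 6 fits without 1 array, with an adjusted p of up to 0.0763, and lost its call without glucosamine replicate 3 or any 1 sucrose array. On the other side of the cluster mtt, a glutamate receptor-like gene next to Mal-A8, also has an annotated span that overlaps its neighbour. It stayed between 4.63 and 5.38 on all arrays and was not tested. The genes next to the Mal-B pair, CG42486 and CG42751, had no probe set of their own by the annotation.

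Other enzymes that act on glycosidic bonds, with related proteins, were read on a list of their own. A log2 difference above 1 in glucosamine replicate 3 was found for 0 of 11 tested, beside 1.48% of everything tested. Of 11 tested members of that list 3 fell and 1 rose, beside 8.64% lower and 9.92% higher over everything tested, with a median log2 difference of −0.46 beside −0.03. The alpha-glucosidase-like gene tobi, known as a target of brain insulin, had 773, 1427 and 1648 in glucosamine replicates 1, 2 and 3, against 5731, 13066 and 7608 in sucrose replicates 1, 2 and 3. All of its glucosamine arrays were below all of its sucrose arrays, as in Mal-A5 and Mal-B2, and tobi fell by 2.75 ± 0.39 on the log2 scale (SE; limma adjusted p = 0.00666). CG33080, an alpha-glucosidase-like gene, fell by 1.598 and LManII, of the lysosomal alpha-mannosidases, by 0.50 (limma adjusted p = 0.00929 and 0.0486). CD98hc, which encodes the heavy chain of amino acid transporters and whose human counterpart is related in fold to alpha-amylases, rose by 1.08 (adjusted p = 0.00492), at 4609, 4091 and 4883 on the glucosamine arrays and 2065, 2146 and 2184 on the sucrose arrays. The trehalase gene Treh had −0.65 (adjusted p = 0.0698). The calls of tobi, CG33080 and CD98hc held in all 6 fits without 1 array, and that of LManII in none of them (adjusted p up to 0.133).

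Transporters that carry sugars or belong to their family came next. Of 13 tested members 3 fell and 2 rose, against the same 8.64% lower and 9.92% higher, and the median was −0.03. Slc45-1, which encodes a sucrose transporter, had 60.8, 74.7 and 68.5 on the glucosamine arrays and 183, 113 and 137 on the sucrose arrays, and fell by 0.91 (adjusted p = 0.0215). The sugar transporter-like genes CG6484 fell by 3.01 and CG1213 fell by 2.203 on the log2 scale, and CG3168 rose by 1.77 (limma adjusted p = 0.00130, 0.00249 and 0.00883). MFS3 rose by 0.95 (adjusted p = 0.0355). Slc45-1 kept its call in 3 of the 6 fits that left out 1 array, and lost it when that array was replicate 1 or 3 of glucosamine or replicate 3 of sucrose. MFS3 passed in 1 of the 6, that without sucrose replicate 3.

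Among 15 tested genes of sugar sensing and of the repression of digestive enzymes 4 rose and 1 fell, against 9.92% higher and 8.64% lower over everything tested, and the median was 0.17. Smox, the Smad of the activin branch, had 1998, 1585 and 1816 on the glucosamine arrays and 919, 1243 and 1166 on the sucrose arrays, and rose by 0.70 on the log2 scale (adjusted p = 0.0365). Its ligand gene daw had 665, 498 and 534.5 on the glucosamine arrays and 421, 314 and 437 on the sucrose arrays, with groups that do not overlap but a difference of 0.52 that did not pass (adjusted p = 0.106). The receptor genes babo (0.21, adjusted p = 0.347) and put (−0.20, adjusted p = 0.560) did not pass either. The sugar-sensing transcription factor gene Mondo had 0.08, its partner gene bigmax −0.26 and the sugar-responsive gene sug 0.17, with adjusted p of 0.850, 0.305 and 0.679. The transcription factor genes cbt and Atf3 rose by 1.71 and 0.99 and the insulin receptor gene InR by 1.59, while AkhR, which encodes the receptor of adipokinetic hormone, fell by 1.23 (limma adjusted p = 0.00552, 0.0302, 0.0135 and 0.0337). Without 1 array Smox passed in 1 of 6 fits, Atf3 and AkhR in 2 each, and cbt and InR in 6 each. Smox passed without glucosamine replicate 2, and Atf3 without glucosamine replicate 2 or sucrose replicate 3. AkhR passed without sucrose replicate 2 or 3.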

How the data were processed

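Gene expression was measured on 6 single-channel Affymetrix arrays. The values deposited by the authors are linear intensities, 1 for each probe set on each array, from biotin-labelled cRNA per the labels' protocols. Probe summarisation, background correction and normalization are not given in the sources used here, and the intensities were used as deposited. Sample titles gave the diet and replicate, and 0 value columns lacked a sample. Symbols came from the platform annotation and were updated through Entrez identifiers to RefSeq (13544 matched, with 0 new symbols). Neighbouring genes were read from the same table (Release 6 plus ISO1 MT).

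Left out were 183 control probe sets and 402 probe sets that name several genes. Each gene was its probe set with the highest mean, the 40% with the lowest mean intensity (up to 9.75) were left out, and 10021 genes and unnamed probe sets were tested, 8775 of them with a symbol. Differences of log2(intensity + 16) were fitted in R 4.3.3 by lmFit and eBayes (limma 3.58.1). Tests were two-sided, and p-values were adjusted by Benjamini-Hochberg across all of these, with a threshold of 0.05. In all 1860 passed (18.6%). With 3 arrays a diet, the smallest exact permutation p is 0.1. The fit was tested on simulated data.

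The members and lists were chosen with earlier results of these data known. Named were all maltases, the 6 gut markers with the largest glucosamine replicate 3 difference and neighbouring genes. The 3 nearest profiles to each of the 3 maltases of widest range were named too. Up to 4 members with the smallest p in each list were also picked, but only some of them are named here. None of those picked from the Malpighian tubule list is named. Other genes named were chosen after their values were seen. Alternatives were quantile, median and cyclic loess normalization, no filter or 60%, the mean of probe sets or each separately, a variance trend with robust prior, the replicate block, array weights, pseudocounts of 1 and 64, each array left out in turn, and 2 arrays left out together. Fits of the other lists and of neighbours without 1 array were added after seeing the data. The plots used matplotlib 3.10.9 with pandas 2.3.3 under Python 3.11.15.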

Additional observations from a re-analysis of the deposited data

How the results depend on the processing

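The count of maltases called higher was 0 in all 19 alternatives, and the smallest adjusted p among those with positive differences was 0.092 (Mal-A1). The count called lower was 2 in 11 of 13 alternatives that kept all arrays or dropped a pair, 0 with no filter and 0 in the fit that dropped replicate 3 of glucosamine together with replicate 1 of sucrose, and 0 to 3 without 1 array. Over everything, 1860 were called, 349 with that pair of arrays left out, 777 to 1462 without 1 array and 999 with the replicate block, which kept Mal-A5 (adjusted p = 0.0435) and Mal-B2 (adjusted p = 0.0311) past the threshold. Deviations of arrays with the same replicate number correlated at 0.02, −0.12 and −0.05. With 3 arrays a diet these values cannot settle whether the replicate numbers pair the samples. Mal-A5 was negative in all 19 alternatives, from −1.25 to −0.85, and past the threshold in 14. Mal-B2 was negative in all 19, from −1.29 to −0.83, and past it in 13. With no filter, where more genes were tested, their adjusted p was 0.0507 and 0.0745. Mal-A6, at 0.77, ran from −0.0504 to 1.51 (1.5064) without 1 array, the lowest without glucosamine replicate 3, and was −0.12 with sucrose replicate 1 left out too; the cause was not tested. Mal-A1 ran from 0.43 to 3.10. The number of arrays, and for Mal-A2, Mal-A3, Mal-A4, Mal-A7 and Mal-A8 their low signal, limit what can be shown.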
